A study of Homo sapiens with 11 samples.

Results

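The genes described here encode 10 proteins of the contractile actin cytoskeleton: CALD1, MYL9, TPM1, TPM2, TPM4, ACTN1, ACTN4, MYH9, TAGLN and FLNA. They were taken by name from the 57773 genes of the expression table, and 87 entries carrying their symbols were found among 92662 unique events in 5 splicing tables. All 10 reached an average of 1 FPKM (fragments scaled to transcript length and to library size, a level per length) and were among the 15179 genes tested. Libraries were made from total RNA of HCC78, a lung adenocarcinoma cell line that carries the U2AF1 S34F mutation beside a wild-type allele, and an SLC34A2-ROS1 fusion. U2AF1 is the splicing factor subunit that reads the AG at the end of introns. Stable subclones of HCC78 carried a lentiviral, doxycycline-inducible pTRIPz construct for U2AF1 with FLAG and HA tags, either wild-type (WT) or S34F. The 9 libraries were 2 of WT with doxycycline (WT dox+), 2 of S34F with it (S34F dox+), 2 of WT without it (WT dox-), 1 of S34F without it (S34F dox-) and 2 of the untransduced parental line. The labels give the parental libraries as dox minus, whereas the study elsewhere gives them as dox plus. All groups therefore share the endogenous S34F allele, each construct is represented by a transduced line of its own, and a difference between lines cannot be told apart from a difference between subclones. The labels do not say that replicates came from separate cultures, so p-values measure only the spread between these libraries.

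Non-muscle cells generate tension by sliding myosin II along bundles of actin filaments that are anchored at adhesions. MYH9 is the heavy chain of non-muscle myosin IIA, and MYL9 is a regulatory light chain whose phosphorylation switches the motor on. The tropomyosins TPM1, TPM2 and TPM4 lie along the filament and govern which motors and severing proteins reach it, ACTN1, ACTN4 and FLNA crosslink filaments, and CALD1 (caldesmon) and TAGLN (transgelin) bind filaments and are abundant in smooth muscle. Several of these genes are known targets of serum response factor (SRF), which binds the CArG box with cofactors that sense the pool of free actin, and they are often read as signs of a mesenchymal or contractile state in epithelial cells.

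U2AF1 was at 278 and 299 FPKM in WT dox+ and at 164 and 223 in S34F dox+, against 103 to 115 in the other 5 libraries, and per the labels S34F made up 62% and 65% of U2AF1 mRNA in S34F dox+ and 12% and 14% in WT dox+, against 28% to 33% in the other 5. Genes with 1 FPKM or more numbered 13661 to 14688 in the 5 libraries without induction and 15736 to 20896 in the 4 induced libraries, with S34F dox+ replicate 2 highest. The table holds no counts, so the reads behind each level are unknown. All 8 epithelial markers listed were at 1 FPKM or above in every library (summed FPKM 8581 to 11590), as fits the label. Of 9 smooth muscle markers, 3 or 4 were at 1 FPKM or above (summed FPKM 38.3 to 65.6, mostly SMTN), CNN1, DES, LMOD1 and MYOCD stayed below 1 FPKM in every library, and DES was listed at 0 in 4. Fibroblast markers summed to 4.72 to 15.2 FPKM and were higher in the 4 induced libraries than in the other 5. Their part in the results below was not tested.

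FLNA was the most abundant of the 10 genes, with 1840.3 to 2713 FPKM over the 9 libraries, and TAGLN and MYL9 were the least, with means of 21.7 and 23.0 FPKM. ACTN4 (mean 609.8 FPKM), TPM4 (531) and MYH9 (521) followed FLNA with overlapping ranges, so their order was not set by these data. ACTN1 (221), CALD1 (121) and TPM1 (74.9) came next, each with its lowest library above the highest library of the gene after it. TPM2 (33.4), MYL9 and TAGLN again overlapped. Some genes barely moved: ACTN1 lay between 195 and 247 FPKM, TPM1 between 67.9 and 87.9, and TPM4 between 465 and 629 over all 9 libraries. Variation was unequal: the log2 range over the 9 libraries was 2.14 for TAGLN, 1.47 for MYL9, 1.09 for CALD1 and 0.96 for TPM2, and 0.34 to 0.76 for the other 6, against a median of 0.64 over the 10024 genes that averaged 5 FPKM or more.

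**Figure D1:**
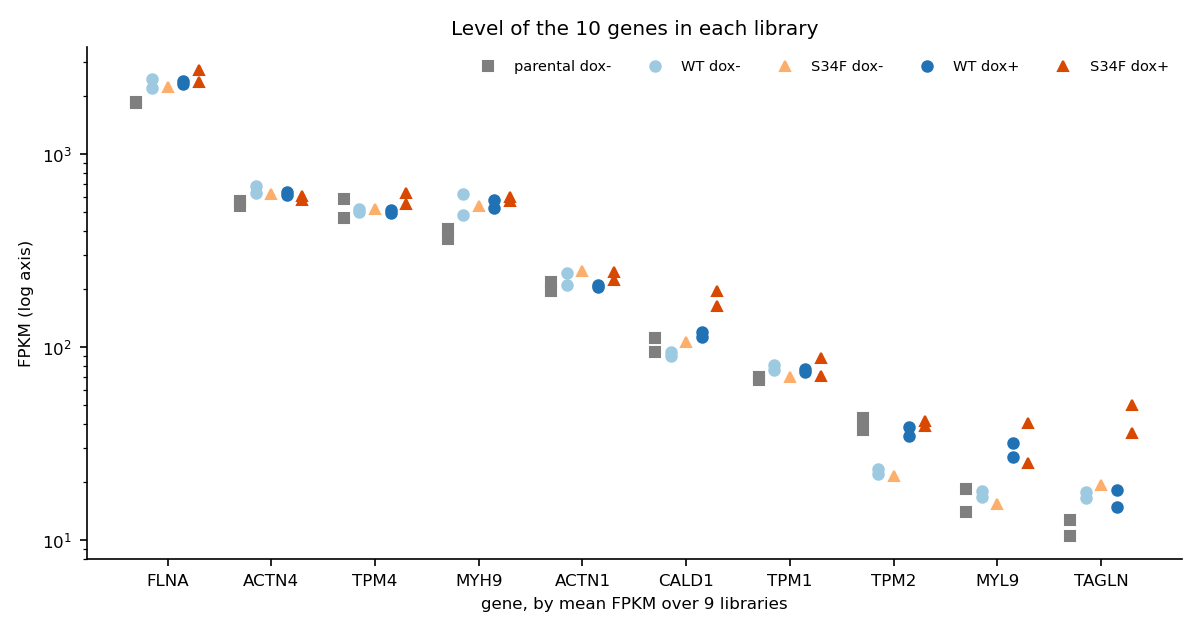
FPKM (log axis) of the 10 genes in each of the 9 libraries, ordered by mean. Each point is 1 library, colored by group. TAGLN and CALD1 were highest in both S34F dox+ libraries, and TPM2 was lowest in the 3 uninduced transduced libraries.

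To ask how cells expressing the mutant construct differed from those expressing the wild-type construct, S34F dox+ was compared with WT dox+. The groups also differed in U2AF1 level (164 and 223 FPKM in S34F dox+, 278 and 299 in WT dox+). The amount of U2AF1 and its allele therefore cannot be told apart here. TAGLN and CALD1 stood out, and the remaining genes differed little. TAGLN was at 49.95 and 35.7 FPKM in S34F dox+ and at 18.2 and 14.9 in WT dox+. In the 5 other libraries it was between 10.5 and 19.2, so both S34F dox+ libraries lay above all 7 others. The log2 fold change, on the log2(FPKM + 1) scale as for all fold changes here, was 1.31 (standard error 0.19, 95% interval 0.86 to 1.75), a 2.47-fold difference that did not pass the test over all genes (adjusted p = 0.20 from limma). CALD1 was at 194 and 163 FPKM in S34F dox+ and at 119.6 and 113 in WT dox+, and at 90.3 to 111 elsewhere. Its log2 fold change was 0.61 (standard error 0.13), which also missed the threshold (adjusted p = 0.42 from limma). CALD1 and TAGLN were thus the only members for which both S34F dox+ libraries lay above the other 7 libraries, an arrangement that 7.85% of all genes tested had.

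No member passed an adjusted p of 0.05 in this comparison, and neither did nearly any gene: 0.0527% of genes were called in either direction. At an unadjusted p under 0.05, TAGLN and CALD1 were higher, against 4.01% of genes, and no member was lower, against 2.77%. Beside these, ACTN1, TPM2 and TPM4 had both S34F dox+ libraries above both WT dox+ libraries (20.5% of genes did), with log2 fold changes of 0.17, 0.13 and 0.23. In TPM values rather than FPKM, ACTN1 kept this order. The groups then overlapped for TPM2 (31.4 and 35.6 in S34F dox+, 36.1 and 30.3 in WT dox+) and TPM4 (509 and 476.2, 476.4 and 434). ACTN4, at 581 and 609 FPKM in S34F dox+ and 612 and 638 in WT dox+, was the only member with the reverse order (15.3% of genes), with a log2 fold change of -0.07. MYL9, TPM1, MYH9 and FLNA overlapped between the groups, with log2 fold changes of 0.12, 0.05, 0.09 and 0.10. MYL9 in particular differed between replicates, at 40.4 and 25.2 FPKM in S34F dox+ against 31.8 and 26.9 in WT dox+, and its 95% interval ran from -0.42 to 0.67. In all, 9 of 10 members were above 0 (median 0.13), against 55% of all genes (median 0.029). With TPM in place of FPKM, which shifted the median of all genes to -0.074, 6 of 10 were above 0 (median 0.012), against 37.2% of all genes. TAGLN and CALD1 kept log2 fold changes of 1.19 and 0.50 with TPM.

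**Figure D2:**
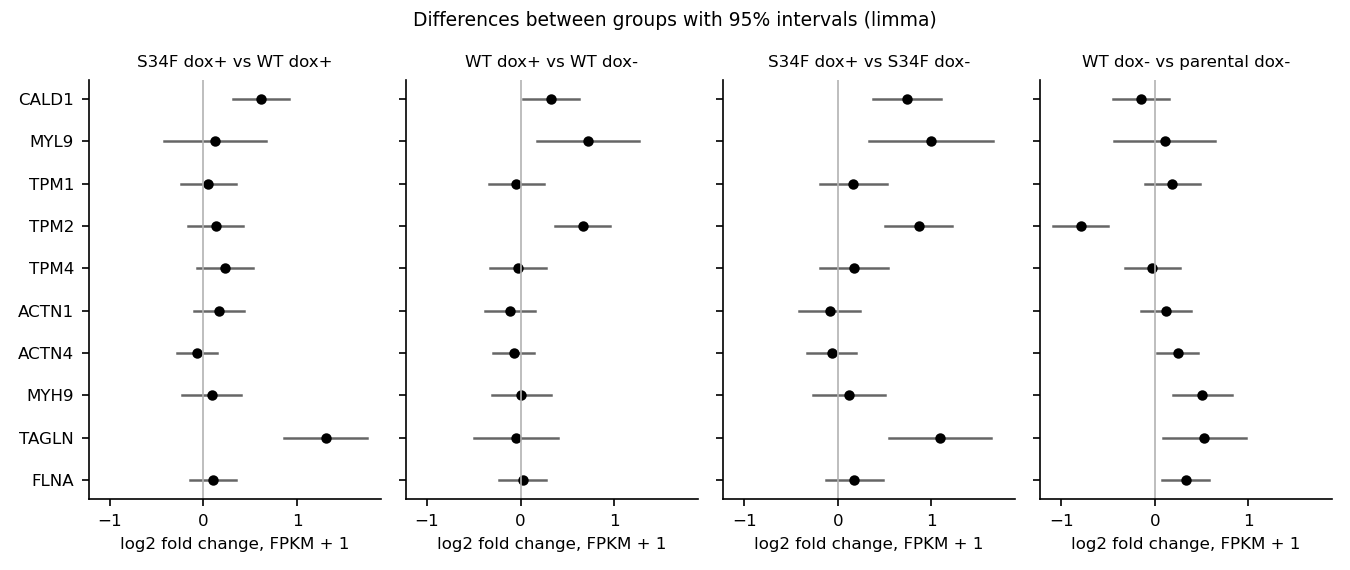
Log2 fold changes of FPKM + 1 for the 10 genes in 4 comparisons, with 95% intervals from limma. The intervals of TAGLN and CALD1 lay above 0 in both comparisons of S34F dox+, those of MYL9, TPM2 and CALD1 lay above 0 in both comparisons of dox+ with dox- of the same line, and against the parental line TPM2 alone had its interval below 0.

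Induction by doxycycline was followed by higher levels of MYL9, TPM2 and CALD1 in both lines. MYL9 was at 17.9 and 16.7 FPKM in WT dox- and 15.5 in S34F dox-, and at 25.2 to 40.4 in the 4 induced libraries. TPM2 was at 23.4 and 21.9 FPKM in WT dox- and 21.5 in S34F dox-, and at 34.4 to 41.4 after induction. CALD1 was at 94.3 and 90.3 FPKM in WT dox- and 106 in S34F dox-, and at 113 to 194 after induction. These were the 3 members for which all 4 induced libraries lay above the 3 uninduced transduced libraries (15.2% of genes), an arrangement noticed after the values were seen. In the WT line, the log2 fold changes were 0.72 for MYL9, 0.66 for TPM2 and 0.33 for CALD1. In the S34F line, against its single uninduced library, they were 1.00 for MYL9, 0.87 for TPM2 and 0.74 for CALD1, and 1.10 for TAGLN, which was at -0.05 in the WT line. The comparison of the induced lines and those with dox- share the dox+ libraries, so their values are not independent. Within either line alone no member passed the adjusted threshold (0.0132% of genes were called in the WT line and 0.283% in the S34F line), and at an unadjusted p under 0.05 there were 3 members higher in the WT line (8.8% of genes) and 4 in the S34F line (10.6%).

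The mean of both responses, a contrast added after these values were seen, raised the number of libraries behind each value, and there 3 of 10 members were called, all higher, against 2.79% of all genes called higher, 1.09% called lower and 3.88% called in all. TPM2 rose by 0.76 on the log2 scale (standard error 0.099, adjusted p = 0.0156 from limma). CALD1 rose by 0.53 (standard error 0.10, adjusted p = 0.0405 from limma) and MYL9 by 0.86 (standard error 0.18, adjusted p = 0.0491 from limma). TAGLN had a value of 0.52 and an adjusted p of 0.0945 from limma, and the other 6 members lay between -0.10 and 0.10. The calls of CALD1 and MYL9 were close to the threshold, and that of MYL9 was also lost with TPM (adjusted p = 0.0533 from limma) and with quantile normalization (0.0748). CALD1 and MYL9 lost theirs when any of the 6 libraries of the replicated induced and uninduced groups was left out (adjusted p from limma between 0.0609 and 0.147 for CALD1 and between 0.0614 and 0.165 for MYL9). TPM2 kept its call without WT dox- replicate 2 (0.0497) and without S34F dox+ replicate 1 (0.036), and lost it without WT dox+ replicate 1 (0.0934), WT dox+ replicate 2 (0.0838), WT dox- replicate 1 (0.0684) or S34F dox+ replicate 2 (0.0614). The single S34F dox- library could not be left out in this way. Whether the parental libraries are doxycycline-treated cells without a construct is not settled by the sources, so doxycycline itself and the expressed U2AF1 cannot be told apart here, nor, in bulk RNA, can more RNA per cell and more cells that express a gene. Induced libraries also had more genes at 1 FPKM or above (15736 to 20896) than uninduced transduced ones (13661 to 14490), and its part in these values was not tested.

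Whether the S34F line responded differently from the WT line was tested as a contrast of the responses. For TAGLN the response was higher in the S34F line by 1.14 on the log2 scale (standard error 0.30, 95% interval 0.44 to 1.85), and for CALD1 by 0.41 (standard error 0.20), and neither passed the threshold (adjusted p = 1 from limma for both). No member was called, while 0.0264% of genes were, and at an unadjusted p under 0.05 TAGLN alone was higher (2.21% of genes). All 10 members had a value above 0 (median 0.20), against 54.2% of all genes (median 0.035). With TPM, which moved the median of all genes to -0.106, 7 of 10 were above 0, against 36.9% of all genes. With median-ratio scaling 8 of 10 were, against 50.4% of all genes. ACTN1 and ACTN4 were below 0 in both and MYH9 with TPM only. For TPM2 the interval of the difference was -0.26 to 0.66 and for MYL9 -0.58 to 1.14, so unequal responses of these genes were not detectable with these libraries.

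Without doxycycline the S34F library was close to the WT libraries, with log2 differences of the 10 members between -0.16 (TPM1) and 0.20 (CALD1) and none called (0.0461% of genes were). TAGLN was at 19.2 FPKM there against 16.5 and 17.7 in WT dox-, a log2 difference of 0.16 with a 95% interval of -0.38 to 0.71.

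The comparison with the parental line set apart other members, none of which was called. MYH9 had 407 and 364 FPKM in the parental line and 485 to 618 in the 7 transduced libraries. FLNA had 1849 and 1840.3 FPKM in the parental line and 2207 to 2713 in the transduced libraries. ACTN4, TAGLN and TPM1 were likewise lower in both parental libraries than in all 7 others, which makes 5 of 10 members, against 5.3% of all genes. In TPM values ACTN4 lost this order, with 470 in S34F dox+ replicate 1 against 477 in parental replicate 1. MYH9, FLNA, TAGLN and TPM1 kept it, and the share of all genes was not counted in TPM. In WT dox- against the parental line the log2 fold changes were 0.51 for MYH9, 0.53 for TAGLN, 0.33 for FLNA, 0.24 for ACTN4 and 0.19 for TPM1. None of the 10 was called (0.0988% of genes were, from limma), though at an unadjusted p under 0.05 MYH9, TAGLN, FLNA and ACTN4 were higher (5.79% of genes) and TPM2 was lower (6.54% of genes). TPM2 had the reverse order. Its parental libraries had 37.4 and 42.8 FPKM, within or near the range of the induced libraries, and what this sets side by side depends on the doxycycline status of the parental cells, given as minus by the labels and as plus elsewhere. The log2 difference of TPM2 between WT dox- and the parental line was -0.79, with a standard error of 0.13 and an adjusted p of 0.103 from limma. TPM2 was the only member for which the 3 uninduced transduced libraries lay below the other 6 (5.94% of genes), and with the fit limited to protein-coding genes its difference from the parental line was called (adjusted p = 0.0437 from limma).

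Within their families the members differed in weight, and the shares below are of FPKM, which is per length. TPM3, a tropomyosin outside the 10 genes, supplied 59.1% to 67.4% of the summed FPKM of the 4 tropomyosin genes, TPM4 27.7% to 34%, TPM1 3.63% to 4.75% and TPM2 the rest. TPM2 supplied 1.15% to 1.25% in the 3 uninduced transduced libraries and 1.95% to 2.68% in the other 6, with no overlap. TPM3 has processed copies in the genome, and how the reads of such copies were split by RSEM was not tested here. TAGLN supplied 7.75% and 6.2% of the summed FPKM of TAGLN and TAGLN2 in S34F dox+, 3.73% and 3.08% in WT dox+ and 1.87% to 3.18% in the other 5, so the transgelin pool remained mostly TAGLN2. MYH9 supplied 89.7% to 94.2% of the 3 non-muscle myosin II heavy chains in every library.

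**Figure D3:**
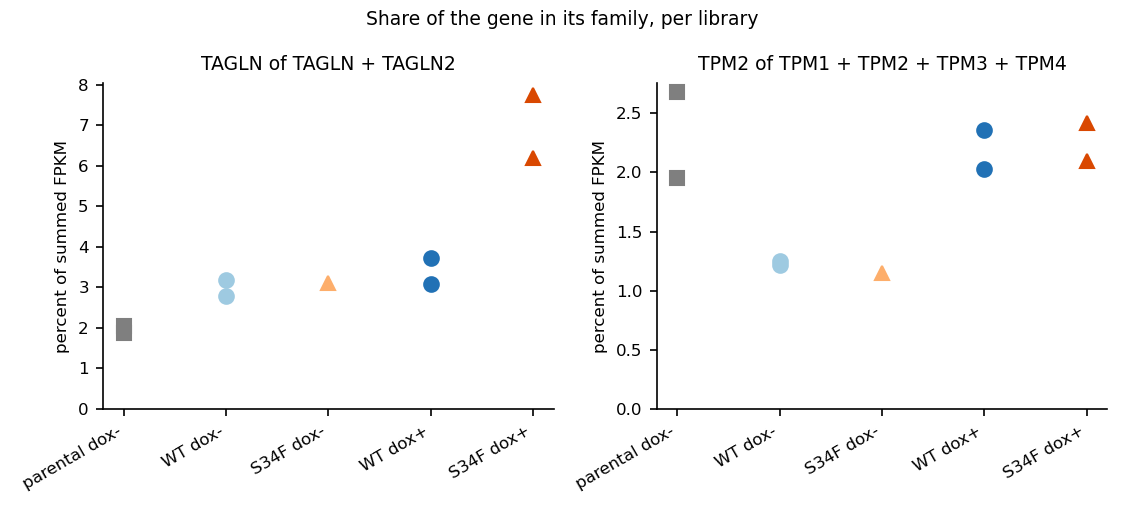
Share of TAGLN in the summed FPKM of TAGLN and TAGLN2 (left) and of TPM2 in that of TPM1 to TPM4 (right), in percent with axes from 0. Each point is 1 library. TAGLN reached 7.75% and 6.2% in S34F dox+, and TPM2 lay at 1.15% to 1.25% in the 3 uninduced transduced libraries.

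Other genes of the system were taken from lists of 12 further filament subunits, 14 regulators of myosin light chain, 25 other actin binding and adhesion proteins, and SRF with 3 cofactors. In S34F dox+ against WT dox+ none of the 11, 14, 23 and 3 genes tested on these lists was called, and their medians were 0.053, 0.049, 0.11 and 0.057 on the log2 scale, against 0.13 for the 10 members and 0.029 for all genes. Among the filament subunits the largest values were -0.78 for MYH10, the heavy chain of non-muscle myosin IIB (13.01 and 14.04 FPKM against 22.5 and 25.4), -0.46 for MYL6B and 0.28 for MYL6, both light chains. Among the regulators they were 0.48 for MYLK, the kinase of the myosin light chain, -0.40 for PPP1R12A, the targeting subunit of the phosphatase that opposes it, and 0.26 for DAPK3, another kinase of the light chain. The adhesion proteins LPP (0.71) and PALLD (0.46) and the LIM protein PDLIM7 (0.31) led the third list. In the last list MKL2, a cofactor of SRF that senses free actin, was at 0.32 and SRF at 0.057. MKL1, another such cofactor, was at 6.29 and 14.3 FPKM in S34F dox+ and at 12.4 and 13.8 in WT dox+, and its value of -0.42 became 0.12 without S34F dox+ replicate 1.

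In the mean response of both lines to doxycycline, 4 of the 51 genes tested on these lists (7.84%) were called, all higher, against 2.79% of all genes. LPP rose by 0.98 (adjusted p = 0.0156 from limma), from 63.5, 80.4 and 75.9 FPKM without doxycycline to between 112 and 213 with it. MYLK rose by 0.68 (adjusted p = 0.0356 from limma), from between 12.1 and 18.6 FPKM to between 20.4 and 33.2. SVIL, which encodes supervillin, a protein that ties myosin II and actin to the membrane, rose by 0.70 (adjusted p = 0.0313 from limma), to between 111 and 116 FPKM. Like TPM2, SVIL was near the induced level in the parental libraries (109 and 104 FPKM), whose doxycycline status is in doubt, and it was lower in WT dox- (45.5 and 62.5) than in S34F dox- (90.8). MKL2 rose by 0.57 (adjusted p = 0.0328 from limma), whereas SRF itself was at -0.067 there. In the same contrast SMTN (smoothelin), on the smooth muscle list, fell by 0.54 (adjusted p = 0.0405 from limma), and MYH11, the smooth muscle myosin heavy chain, had a value of 1.06 at 0.69 to 4.59 FPKM that did not pass (adjusted p = 0.0731 from limma). As for the members, these calls rested on few libraries: of the 6 fits that each left out a replicate, LPP was called in 2, SVIL in 1, and MYLK, MKL2 and SMTN in 0, with adjusted p from limma between 0.0294 and 0.137. No epithelial marker was called in any contrast, and their median was -0.028 in the mean response.

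**Figure D4:**
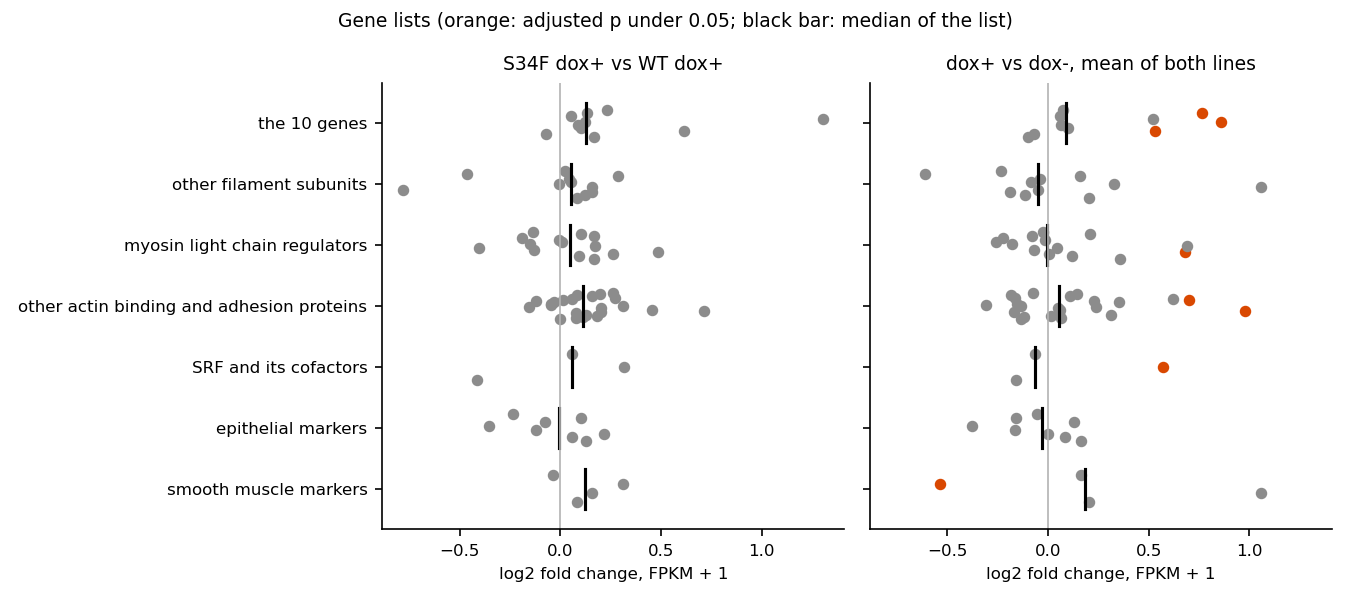
Log2 fold changes of FPKM + 1 for each gene of 7 lists, in S34F dox+ against WT dox+ (left) and in the mean response of both lines to doxycycline (right). Orange points have an adjusted p under 0.05 from limma and black bars are list medians. On the left no listed gene was called, and on the right 3 of the 10 genes, 4 genes of the related lists and SMTN were.

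Because SRF acts through the CArG box, RefSeq promoter windows of 300 bases (250 before to 50 after the transcript start, GRCh38.p14) were read for the members. Entries were found for 8 of the 10, in 18 windows, and MYL9 and TAGLN were not matched. The pattern of a CArG box, though not the letters of each box, reads the same on both strands. A box was in 1 window each of TPM4 (of 3 windows), FLNA (of 1) and ACTN1 (of 4). That is 3 of 8 members, against 1.6% of 27305 genes with a window. By window it is 3 of 18, against 1.29% of 35116. MYLK is shown beside them as 1 of the 4 genes of the related lists called higher with induction. The windows of LPP, SVIL and MKL2, which were called too, were not looked up, so no comparison among these genes is given. The box is in capitals in each of these 30-base stretches, which run 5′ to 3′ along the strand of the gene.
TPM4, chr19:16067355-16067384, plus strand, box starting 173 bases before the transcript start: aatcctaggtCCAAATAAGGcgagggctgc
FLNA, chrX:154374709-154374738, minus strand, 94 bases before: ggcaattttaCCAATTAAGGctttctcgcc
ACTN1, chr14:68977718-68977747, minus strand, 171 bases before 1 of its 4 starts: acgctcatgtCCAAAAATGGtaacattcat
MYLK, chr3:123620623-123620652, minus strand, 94 bases before: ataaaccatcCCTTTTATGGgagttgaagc
The windows of CALD1, TPM1, TPM2, ACTN4 and MYH9 held no such box, which says only that these letters are not within them. The 3 members with a box had log2 values of 0.076 (TPM4), 0.099 (FLNA) and -0.10 (ACTN1) in the mean response, and of the 3 members called there CALD1 and TPM2 had none and MYL9 could not be read.

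Splicing was compared by the authors between S34F and WT cells with MISO. For each event it gives a PSI (percent spliced in, here a fraction from 0 to 1, of the form named first) and a Bayes factor for a difference. The tables give 1 value per side, without replicates, and do not name the sides, and the S34F side was taken as the first from the order of the names in the title of the tables. Lists of events that the study gives elsewhere are not uniform in sign with this reading. For 10753 genes with at least 100 reads a side, reads of the first side over those of the second were taken at the deepest event. Their log2 ratio correlated positively with the log2 difference of S34F dox+ and WT dox+ in FPKM, the sign that this order gives. Pearson's r was 0.474 across genes, which are not independent, and 0.157 with the difference of S34F dox- and WT dox-. Of 55 genes more than 2-fold higher in S34F dox+, only 63.6% had a read ratio above the median. Of 27 genes more than 2-fold lower, only 55.6% had a ratio below it, so the order of the sides remains an assumption. The order of the PSI columns was assumed to be that of the read columns. An event was called at a PSI difference of at least 0.10, a Bayes factor of at least 5 and at least 10 reads over both sides. Of the 87 entries, 86 had enough reads and 2 were called, both skipped exons, in CALD1 and MYL9. Among all 87763 events with enough reads 1.18% were called, and among skipped exons 1.36%. That is 2 of 10 genes with a called event, where 6.16% of 17650 genes had one. The members had 3 to 18 events each, and genes with as many events or as many reads were not compared. Reads were compared over the deepest event of each gene. TAGLN had 424 reads in S34F and 216 in WT, a ratio of 1.96, CALD1 had 1.04 and the other 8 genes had 0.594 to 0.869, against a median of 0.688 over all events.

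In CALD1, a skipped exon of 88 bases at chr7:134528635-134528722 on the plus strand was included at 0.52 in S34F cells against 0.83 in WT cells (Bayes factor 37.3, 5615 and 5457 reads). Coordinates of events are given in GRCh37, the build that the submitters' processing notes name. The exon was joined from a donor at position 134464500 and skipped to an acceptor at 134552444, and the PSI of 0.52 puts skipping near inclusion in S34F. Nearly the same reads were listed for most events of CALD1, so how many of them inform this exon is unknown. The other 12 events of CALD1 with enough reads were not called. Of these, 3 were NAGNAG choices, where tandem acceptors lie 3 bases apart, with differences of -0.14 (0.49 and 0.63), -0.10 (0.21 and 0.31) and -0.07 (0.07 and 0.14) at Bayes factors of 0.33 to 0.72. An alternative 5′ splice site in the gene stood at 0.79 and 0.75.

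In MYL9, a skipped exon that starts at position 35176435 of chromosome 20 (plus strand, skipped from 35173471 to 35177480) had a PSI of 0.38 in S34F and 0.74 in WT (Bayes factor 3648902, 535 and 616 reads). The same donor was used in 2 more events. Use of the acceptor at 35176435 rather than one 95 bases downstream, at 35176530, had a PSI of 0.34 in S34F and 0.13 in WT (Bayes factor 3.13), and inclusion from 35176530 rather than skipping had 0.06 and 0.12 (Bayes factor 0.27). These 3 values do not form 1 set of proportions. In WT, the first 2 imply a ratio of the 35176530 form to the skipping form of 19, where the third lists 0.136, and in S34F they imply 1.19, where it lists 0.0638. The direction for the 35176435 exon also differed between the events, lower in S34F against skipping and higher against the other acceptor. A further skipped exon of MYL9 stood at 0.02 on both sides, and a NAGNAG event listed under the gene lay on the opposite strand, so it cannot belong to its transcript.

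**Figure D5:**
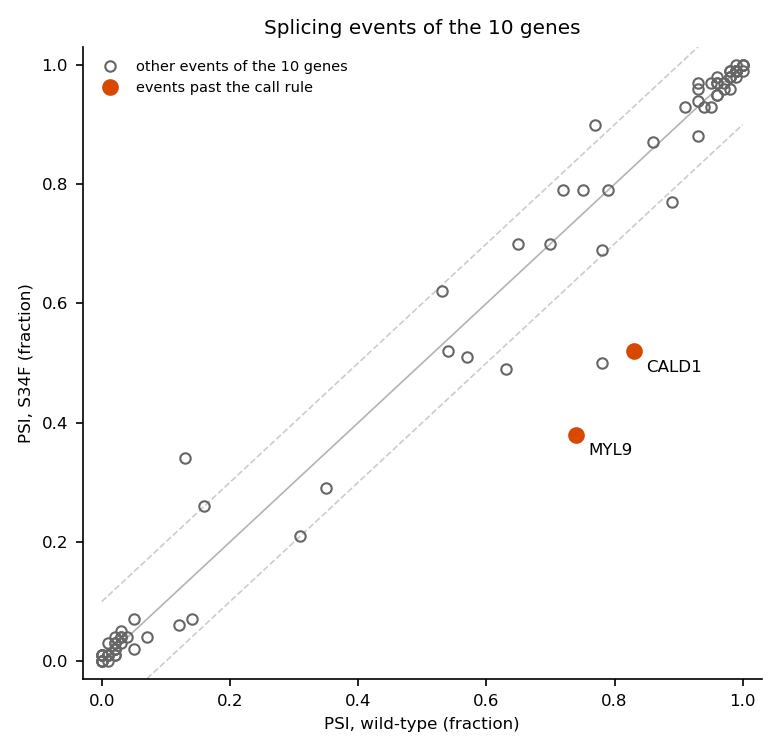
PSI in S34F against PSI in WT (fractions) for the 86 events of the 10 genes with enough reads. The solid line marks equality and the dashed lines a difference of 0.10. The called events of CALD1 (0.52 against 0.83) and MYL9 (0.38 against 0.74) lay furthest below the line.

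The remaining events of the 10 genes were mostly alike on both sides. Of the 86 events, 70 (81.4%) differed by at most 0.05, against 51.9% of all events, and the median difference in size was 0.01 against 0.05. At least 500 reads were listed for 81 of the 86, whereas all events included any with at least 10 reads. Events of like depth were not compared, so these shares do not set the members apart from other deeply covered genes. The 15 events of FLNA had 126963 reads or more each and differed by at most 0.02, including an exon from position 153585642 of chromosome X (minus strand) with 0.52 in S34F and 0.54 in WT. A retained intron of FLNA had a Bayes factor of 21.8 for a difference between 0.96 and 0.98 of the spliced form, below the threshold in size. TPM1 and TPM2 were less deeply covered than most of the other members. In TPM1, the internal exon of 76 bases at chr15:63353397-63353472, 1 of a mutually exclusive pair, had 0.69 in S34F and 0.78 in WT (Bayes factor 0.33, 317 and 568 reads). A further TPM1 exon, from 63351836, had 0.51 and 0.57 against skipping to 63353068. From the same donor, at 63349317, the exon from 63351762 had 0.98 on both sides against the same skipping. Use of the acceptor at 63351762 rather than 63351836 had 0.03 and 0.02. As in MYL9, these values do not form 1 set of proportions, so the inclusion of the exon from 63351836 is not settled. An exon near the 3′ end, from 63356263, had 0.26 and 0.16 with 49 and 82 reads. Where that exon ends is not settled, as a donor at 63356389 rather than 63356341 had 0.70 on both sides. The largest difference of the gene, 0.50 against 0.78, rested on 21 and 16 reads. In TPM2, the internal exon of 76 bases at chr9:35685061-35685136 (minus strand) had 0.97 and 0.93 against joining to 35684804. The exon from 35684804 had 0.29 and 0.35, joined from the donor of the 76-base exon at 35685061 and set against joining to 35684547. Whether these values fit together was not tested. TPM4 had 3 events, each within 0.01 between the sides, with at least 17507 reads.

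In ACTN1, an exon of 81 bases at chr14:69345706-69345786 (minus strand) had 0.79 in S34F and 0.72 in WT (Bayes factor 0.3, 5452 and 6871 reads) when set against joining to 69345240. Set against joining to 69343957 from the same donor, this exon had 0.99 and 0.98. The exon from 69345240 had 0.02 and 0.05 against 69343957, and whether these values fit together was not tested. A NAGNAG choice at the acceptor 69345240 went in opposite directions by donor, 0.62 against 0.53 from 69346679 and 0.77 against 0.89 from 69345706, at Bayes factors of 0.78 and 0.61. The largest Bayes factors of ACTN4 and MYH9 were also NAGNAG choices, with 0.70 and 0.65 (Bayes factor 0.41) and with 0.90 and 0.77 (Bayes factor 0.51). In TAGLN, the gene that differed most in level, all 3 events differed by at most 0.05, with a spliced fraction of 0.88 and 0.93 for its retained intron.

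The genes whose profile over the 9 libraries was most like the mean profile of the 10 members, by root mean square difference of centred log2(FPKM + 1) among 10014 genes, were ZNF791 (0.0761), WNK1 (0.0794), GIT2 (0.0796), RSPRY1 (0.0800) and ANKRD17 (0.0814). The members themselves lay at 0.14 (TPM4) to 0.46 (TAGLN) from their own mean profile, with a median of 0.18, against a median of 0.28 over the other genes compared. The members make up that mean and the 5 genes were chosen for closeness to it, so these distances are a description only.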

How the data were processed

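RNA-Seq libraries were prepared by the authors from total RNA with a stranded kit, sequenced in paired ends and aligned with STAR 2.3.0, and FPKM and TPM values per gene were computed by the authors with RSEM 1.2.29 (GRCh37 or hg19, per the submitters' processing notes). The deposited tables give FPKM and TPM per library without pooling. For splicing, the authors deposited PSI (a fraction), the Bayes factor (a ratio), read counts per event and their own PSI differences for 1 MISO comparison. Those differences were not used and were recomputed. How replicates were combined is not given in the sources used here. Reads of several events of a gene carry nearly the same number, so they are not specific to a junction.

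The study tested counts, but the deposited table holds none, so log2(FPKM + 1) of genes averaging 1 FPKM or more was fitted with limma 3.58.1 (lmFit, eBayes with trend, R 4.3.3), the 5 groups sharing 1 estimate of spread. Tests were two-sided, and p-values were adjusted by Benjamini-Hochberg over 15179 genes. Single libraries are assumed to vary like the other groups. All 10 members are named. From related lists, genes that were called and up to 3 per list with the largest difference between the induced lines at a mean of at least 5 FPKM are named, and MYH11 was named after its value was seen. Of splicing events, those called, the event with the largest Bayes factor of each other member and known alternative exons are named. Where an event has several isoforms, that with the highest Bayes factor stands for it. Members and lists were chosen with earlier results of these data known. Alternatives covered the pseudocount, the minimum FPKM, the scaling, a block for replicate number, fits on only the groups compared, leaving out replicates in turn, and the cutoffs for events. Binding data (iCLIP) were not analysed here.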

Additional observations from a re-analysis of the deposited data

How the results depend on the processing

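The number of members called was 0 under every alternative in S34F dox+ against WT dox+, within either line, in the contrast of responses and in S34F dox- against WT dox-. Against the parental line it was 1 (TPM2) with protein-coding genes only. In the mean response it fell from 3 to 1 with no minimum FPKM, with median-ratio scaling, with the fit on its own groups and with the replicate block, and to 2 with TPM and with quantile normalization, where MYL9 was lost. It lay between 0 and 1 as replicates were left out. Replicate numbers did not pair the libraries (correlations of deviations between -0.0756 and 0.0374), so the block rests on a shared number only. The 2 called splicing events stayed called at a Bayes factor of 20, and at a Bayes factor of 1 the other acceptor choice of MYL9 joined them, which made 3. Over all events the count went from 1034 to 392 and to 13370. The cause of the changes was not tested.

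Counts over all genes were small and unstable. In S34F dox+ against WT dox+ the 8 calls became 4 with a pseudocount of 0.1, 3 with no minimum, 5 with the replicate block and 0 on its own groups, and 1 to 29 with a replicate left out. In the WT response the 2 calls became 7 with that pseudocount, 8 at a minimum of 5 FPKM, 32 with protein-coding genes, 1 on its own groups, and 0 with no minimum, TPM, median-ratio scaling, quantile normalization or the replicate block, and 0 to 10 with a replicate left out. In the S34F response the 43 calls became 148 with no minimum, 4 with the replicate block and 0 on its own groups, and 13 to 26 with a replicate left out. For the contrast of responses the 4 calls became 33 with no minimum and 0 with protein-coding genes, and 2 to 11 with a replicate left out. For the mean response the 589 calls became 140 with no minimum, 209 with quantile normalization, 242 with the replicate block and 138 on its own groups, and 10 to 347 with a replicate left out. For S34F dox- against WT dox- the 7 calls became 4 with the lower pseudocount, 112 with no minimum, 4 at 5 FPKM, 2 with protein-coding genes and 0 on its own groups, and 4 to 8 with a replicate left out. For WT dox- against the parental line the 15 calls became 4 with no minimum, 8 with quantile normalization, 58 with protein-coding genes, 6 with the replicate block and 3 on its own groups, and 3 to 23 with a replicate left out.

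No log2 fold change that turned direction belonged to a member called in that contrast. With TPM, in S34F dox+ against WT dox+, TPM1 was at -0.0644, MYH9 at -0.0285 and FLNA at -0.0163. With TPM, TPM4 was at 0.00411 in the WT response and 0.0759 against the parental line, MYH9 at -0.00507 in the S34F response and 0.014 between uninduced lines, and ACTN1, ACTN4 and MYH9 at -0.126, -0.145 and -0.0425 in the contrast of responses. With quantile normalization, TPM1, TPM4 and ACTN4 were at 0.0183, 0.0832 and 0.0578 in the WT response, ACTN1 and ACTN4 at 0.0395 and 0.0835 in the S34F response, ACTN4 at 0.0706 in the mean response and FLNA at 0.00905 between uninduced lines. With median-ratio scaling, MYH9 and FLNA were at -0.0303 and -0.0167 in the WT response and ACTN1 and ACTN4 at -0.00905 and -0.0271 in the contrast of responses. With the replicate block, ACTN1 was at -0.0313 in the contrast of responses, and MYL9 and MYH9 at 0.0167 and 0.0687 between uninduced lines.

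With a replicate left out, in S34F dox+ against WT dox+ FLNA ranged from -0.00125 to 0.205, MYL9 from -0.208 to 0.454 and TPM1 from -0.106 to 0.21. TAGLN ranged from 1.07 to 1.54 and CALD1 from 0.49 to 0.74. Between uninduced lines FLNA ranged from -0.123 to 0.018 and MYH9 from -0.196 to 0.154. In the WT response FLNA ranged from -0.048 to 0.0927, MYH9 from -0.167 to 0.184, TAGLN from -0.185 to 0.0878 and TPM4 from -0.0551 to 0.00573. Against the parental line MYL9 ranged from -0.0834 to 0.293 and TPM4 from -0.187 to 0.134. In the mean response MYH9 ranged from -0.0237 to 0.151 and TPM1 from -0.0194 to 0.139. In the contrast of responses ACTN1 ranged from -0.0765 to 0.128, ACTN4 from -0.0497 to 0.0656, MYH9 from -0.0648 to 0.286 and MYL9 from -0.0533 to 0.608.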
